A study of Schizosaccharomyces japonicus with 6 samples.

Results

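Tj3 is a family of long terminal repeat (LTR) retrotransposons of the fission yeast *Schizosaccharomyces japonicus*. Its loci were taken as every row of the deposited expression table whose identifier begins with Tj3 followed directly by - or _. This gave 35 of the 266 transposable element (TE) loci of the families Tj1 to Tj10, in a table of 5152 loci. Of the 35 loci, 3 are full-length elements, 30 are partial elements and 2 are solo LTRs, as read from their names. The table comes from RNA-seq of 3 libraries of the dcr1Δ* strain and 3 wild-type libraries, all grown in YES at 32 °C. The dcr1Δ* cells carry dcr1-dis::natMX6, which disrupts the gene for Dicer, together with the mpe1-R77W mutation. Both strains are h- and share mat-P2028, ura4-D3 and ade6(sj)-domE. The dcr1Δ* strain is a single rare survivor isolate, so the mutations in it cannot be told apart.

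LTR retrotransposons move through an RNA copy that is reverse transcribed and inserted elsewhere in the genome. A full-length element holds an internal coding region between a pair of LTRs, partial elements have lost part of it, and a solo LTR is what remains after recombination between the LTRs. Tj3 belongs to the lineage of *S. japonicus* elements that is related to Ty3 of budding yeast. In RNA interference, Dicer cuts double-stranded RNA into short interfering RNAs, which guide an Argonaute protein to matching transcripts. In *S. japonicus*, TEs lie clustered at putative centromeres and telomeres.

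The value used for each locus is the authors' average log2 CPM (logCPM) over all 6 libraries, where CPM is the share of a library's assigned reads that fell on a locus, scaled to the same total in every library. It pools dcr1Δ* and wild-type cells. The values below therefore describe how much Tj3 RNA was counted at each locus in both strains together, and they hold no difference between the strains, no SD and no n. The part of each strain in a value cannot be told apart here. Reads that map to several places were split into fractions by the authors, so copies of Tj3 share reads and are not independent of each other. Depth per library is unknown. The lowest value in the table, a logCPM of −3.99 or 0.0628 CPM, is shared by 15 loci and was taken as the level of loci without reads, since edgeR adds a prior count before averaging. If that prior was the default of 2, the average library held about 3.18e+07 counts and 1 count per library equals 0.0314 CPM.

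Tj3 transcripts were counted at most of the loci, but few loci held most of the reads. The 35 loci together held 123 CPM, which is 0.0123% of the CPM of all loci. The median logCPM was −0.98, the lowest −3.99 and the highest 4.82. Of the 35 loci, 33 lay above the lowest value in the table and 2 were at it. Of all 266 TE loci 12 were at it, and of all 5152 loci 15, so being counted is not particular to Tj3. On the assumption above, 11 of the 35 were within less than 1 count per library of the lowest value. The 15 loci over 1 CPM held 96.4% of the Tj3 reads, and the 3 highest held 50.1%. These 3 are a partial element on supercont5.1, a partial element on supercont5.4 and the full-length Tj3-3. The 20 other loci, each at 1 CPM or less, included both solo LTRs.

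**Figure D1:**
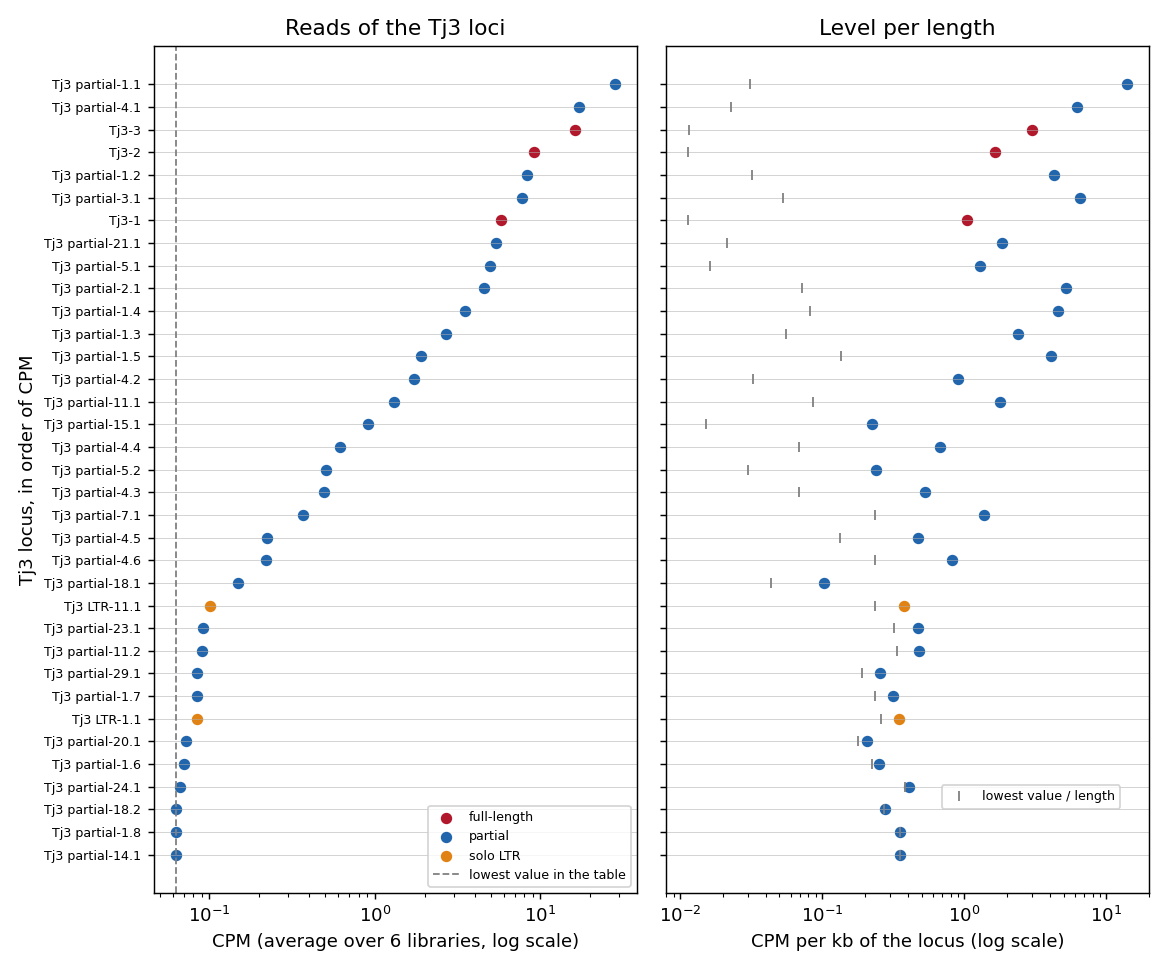
Average reads (left, CPM over 6 libraries, log scale) and reads per length (right, CPM per kb, log scale) of the 35 Tj3 loci, in order of CPM, with 1 point per locus coloured by element type. The dashed line and the grey ticks mark the lowest value in the table, 0.0628 CPM, as such and divided by the length of each locus. Reads fall off from 28.3 CPM, and the lowest 11 loci lie close to the dashed line, so their level per length mostly holds the lowest value.

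The full-length elements Tj3-1, Tj3-2 and Tj3-3 are the copies named as complete elements. They are 5511, 5503 and 5481 bases long and all lie on the minus strand. Tj3-3, on supercont5.14 from 2749 to 8229, had a logCPM of 4.03, or 16.3 CPM. Tj3-2, on supercont5.7 from 11316 to 16818, had a logCPM of 3.19, or 9.10 CPM. Tj3-1, on supercont5.1 from 4235110 to 4240620, had a logCPM of 2.53, or 5.78 CPM. Per length, Tj3-3 stood at 2.97, Tj3-2 at 1.65 and Tj3-1 at 1.05 CPM per kb, so that Tj3-3 held 2.82 times the reads of Tj3-1. No spread between replicates is at hand to set this difference against. The full-length elements held 25.3% of the Tj3 reads on 32.7% of the 50.5 kb of Tj3 sequence.

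Partial elements, which lack some of the coding region or an LTR, held 74.5% of the Tj3 reads and covered the widest range of levels. The highest was Tj3_partial_retrotransposon-1.1, a stretch of 2015 bases on the plus strand of supercont5.1 from 1996963 to 1998977. It had a logCPM of 4.82, or 28.3 CPM, which is 23.0% of all Tj3 reads. Tj3_partial_retrotransposon-4.1, of 2753 bases on the minus strand of supercont5.4 from 43550 to 46302, followed with a logCPM of 4.09, or 17.0 CPM. Both held more reads than the longest Tj3 element, Tj3-1.

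Other partial elements, on supercont5.1 to supercont5.3 and on smaller contigs, were also well covered. Tj3_partial_retrotransposon-1.2, on supercont5.1 from 1773971 to 1775917, held 8.36 CPM, and Tj3_partial_retrotransposon-3.1, on supercont5.3 from 850819 to 852006, held 7.73 CPM. Further down, Tj3_partial_retrotransposon-21.1 held 5.37 CPM, Tj3_partial_retrotransposon-5.1 held 4.97 CPM and Tj3_partial_retrotransposon-2.1, on supercont5.2 from 3830612 to 3831489, held 4.56 CPM. Tj3_partial_retrotransposon-1.4 and Tj3_partial_retrotransposon-1.3, neighbours on supercont5.1 between 1982735 and 1985706, held 3.48 and 2.69 CPM. Below these, Tj3_partial_retrotransposon-1.5, Tj3_partial_retrotransposon-4.2 and Tj3_partial_retrotransposon-11.1 held between 1.30 and 1.91 CPM.

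Per length, which is the measure on which loci of different size can be set side by side, Tj3_partial_retrotransposon-1.1 led with 14.0 CPM per kb. It was followed by Tj3_partial_retrotransposon-3.1 at 6.51, Tj3_partial_retrotransposon-4.1 at 6.19, Tj3_partial_retrotransposon-2.1 at 5.19 and Tj3_partial_retrotransposon-1.4 at 4.55 CPM per kb. Of the length of Tj3_partial_retrotransposon-2.1, 57.4% is shared with the annotated gene SJAG_16458, described below. In all, 7 of the 30 partial elements had more CPM per kb than each of the full-length elements, and 18 had less than each of them. The order of these 7 was the same after the lowest value in the table had been subtracted. The median was 0.60 CPM per kb over partial elements and 1.65 CPM per kb over full-length elements. Partial elements ran from 164 to 4109 bases, with a median length of 747.5 bases. Over all Tj3 loci of 400 bases or more, full-length ones included, the median was 1.78 CPM per kb, against 0.353 over shorter loci. The difference between the types was therefore not separated from length.

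The 2 solo LTRs, which hold the promoter and end signals of an element but no coding region, were barely covered. Tj3-type_LTR-11.1, of 268 bases on supercont5.11 from 916 to 1183, held 0.101 CPM, and Tj3-type_LTR-1.1, of 243 bases on supercont5.1 from 1772863 to 1773105, held 0.0838 CPM. With the lowest value in the table subtracted, 0.0383 and 0.0210 CPM remained. Together they held 0.15% of the Tj3 reads. Of the partial elements that are also 268 bases long, Tj3_partial_retrotransposon-1.7 held 0.0838 CPM and Tj3_partial_retrotransposon-7.1 held 0.370 CPM. A level this low was therefore not particular to solo LTRs.

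The partial elements at the lowest value in the table were Tj3_partial_retrotransposon-1.8, on supercont5.1 from 4226727 to 4226904, and Tj3_partial_retrotransposon-14.1, on supercont5.14 from 2147 to 2324. Both are 178 bases long and lie on the plus strand. Each borders a Tj13 LTR and lies upstream, in contig coordinates, of a full-length Tj3 element on the same contig, Tj3-1 and Tj3-3. Close to this level were Tj3_partial_retrotransposon-18.2 at 0.0631 and Tj3_partial_retrotransposon-24.1 at 0.0666 CPM. At this depth such values do not show whether transcripts were absent.

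Long Tj3 loci held most of the reads. The 21 loci of 400 bases or more held 98.8% of the Tj3 reads, with a median of 3.48 CPM. The 14 shorter loci held 1.24%, with a median of 0.0838 CPM and a highest value of 0.370 CPM at Tj3_partial_retrotransposon-7.1. The limit of 400 bases was chosen after the values had been seen. Per length, the median was 1.78 CPM per kb over the longer and 0.353 CPM per kb over the shorter loci, a description of loci that share libraries and split reads. The shorter loci's median is the level of loci at the lowest value, and with that value subtracted the medians were 1.70 and 0.0715 CPM per kb.

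**Figure D2:**
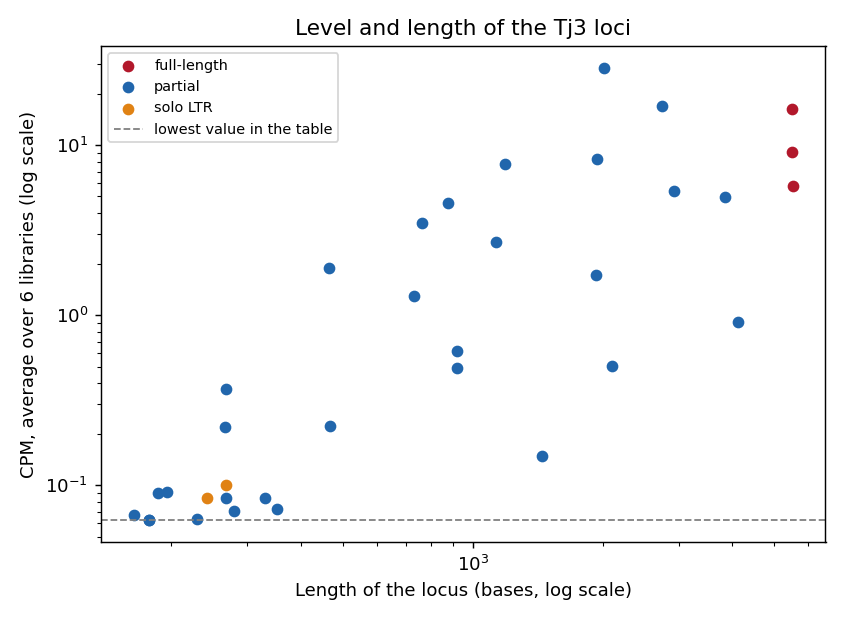
Average CPM over 6 libraries against the length of each Tj3 locus in bases, both on log scales, with 1 point per locus coloured by element type and the lowest value in the table as a dashed line. The 14 loci under 400 bases stay at or below 0.370 CPM, while loci of 1928 to 2104 bases run between 0.506 and 28.3 CPM.

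Some long partial elements were low for their length. Tj3_partial_retrotransposon-15.1, the longest partial element with 4109 bases on supercont5.15 from 3822 to 7930, held 0.914 CPM, or 0.222 CPM per kb. Tj3_partial_retrotransposon-5.2, of 2104 bases on supercont5.5 from 61033 to 63136, held 0.506 CPM, or 0.240 CPM per kb. Tj3_partial_retrotransposon-18.1, of 1451 bases on supercont5.18 from 2650 to 4100, held 0.149 CPM, or 0.102 CPM per kb. With the lowest value in the table subtracted it stood at 0.0591 CPM per kb, and 6 shorter loci lay lower. At nearly the same length as Tj3_partial_retrotransposon-5.2, Tj3_partial_retrotransposon-1.1 stood at 14.0 CPM per kb. These long and low loci were picked out after their values had been seen.

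The Tj3 loci lie on 15 contigs of the SJ5 assembly, many of them small and unplaced. The 12 loci on supercont5.1 to supercont5.3 held 51.3% of the Tj3 reads with a median of 3.09 CPM, and the 23 loci on the smaller contigs held 48.7% with a median of 0.370 CPM. Their median lengths were 821.5 and 730 bases. Supercont5.1 alone has 10 loci and 41.3% of the reads, and supercont5.4 has 6 loci and 16.5%. The loci were split almost evenly over the strands, with 19 on the plus strand holding 49.2% of the reads and 16 on the minus strand holding 50.8%.

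On supercont5.1 the Tj3 loci fell into 3 groups when loci less than 50 kb apart were joined. The group of 3 loci between 1982735 and 1998977 held 34.5 CPM, with each locus at 2.69 CPM or more. The group of 5 loci between 1772863 and 1861017 held 10.5 CPM, of which 8.36 CPM fell on Tj3_partial_retrotransposon-1.2. In the group between 4226727 and 4240620, nearly all of the 5.85 CPM fell on Tj3-1.

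Tj3 loci are packed against other elements. Of the 35 loci, 25 (71.4%) bordered or overlapped another listed element, against between 11.1% of loci in Tj1 and 76.0% in Tj8. Tj5 had 70.0%, so this is not particular to Tj3. Overlaps occurred at 8 loci and were of at most 4 bases. Among them, Tj3_partial_retrotransposon-11.2, of 187 bases on supercont5.11 from 2769 to 2955, shares 2 bases with a Tj16 LTR and held 0.0897 CPM. All but 2 loci lay within 1000 bases of another element, and the largest gap was 1720 bases. The 30 contacts were with Tj5 and Tj8 elements (7 each), Tj9 and Tj13 (4 each), Tj16 (3), Tj10 (2) and Tj6, Tj15 and Tj18 (1 each). No Tj3 locus bordered another Tj3 locus. At 5 loci another element bordered each side, and 4 of these lie on supercont5.4, where 3 Tj3 fragments sit between a Tj5 and a Tj8 element and 1 between Tj8 elements. These 4, Tj3_partial_retrotransposon-4.3, Tj3_partial_retrotransposon-4.4, Tj3_partial_retrotransposon-4.5 and Tj3_partial_retrotransposon-4.6, held between 0.219 and 0.617 CPM.

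On the long contigs, annotated genes overlapped 3 Tj3 loci. SJAG_16458, on supercont5.2 from 3830986 to 3831504, has 97.1% of its 519 bases inside Tj3_partial_retrotransposon-2.1. The gene had a logCPM of −0.33, or 0.795 CPM, and the Tj3 locus one of 2.19. SJAG_02928 shares 130 bases with Tj3_partial_retrotransposon-1.2, and SJAG_04448 shares 14 bases with Tj3_partial_retrotransposon-3.1. How reads over such shared bases were assigned is not given in the sources used here.

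By rank, Tj3 took an intermediate place among the 10 families. Its 35 of the 266 TE loci held 1.88% of the TE reads, the 6th highest share. Tj7 held 62.0%, Tj6 15.2%, Tj9 9.21%, Tj8 5.70% and Tj2 4.70%. Tj5 held 0.785%, Tj10 0.297%, Tj1 0.140% and Tj4 0.0274%. Over the summed length of all its loci, Tj3 stood at 2.44 CPM per kb, also 6th, against 292.7 CPM per kb in Tj7 and 0.0710 CPM per kb in Tj4. All other TE loci together stood at 24.9 CPM per kb, and at 9.67 CPM per kb without Tj7, so Tj3 lay below both. The lengths are those of the listed loci. For dcr1Δ* cells the paper reports more copies of Tj7 by qPCR, and no increase for the other families it measured. The share and the CPM per kb of Tj7 are therefore not levels per copy. The median locus of Tj3 had 0.672 CPM per kb, the 7th highest median of the 10 families. This compares with 0.615 in Tj5, 3.65 in Tj9 and 1.60 over the 231 other TE loci. The lowest value in the table was not subtracted from these medians. The highest Tj3 locus was surpassed per length by 36 TE loci. Its reads were less concentrated than in most families, with 23.0% on the highest locus against 71.9% in Tj7 and 11.1% in Tj9. None of these differences was tested, because loci of a family share reads.

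The full-length elements of Tj3 lay in the middle of the 13 full-length elements of all families. By CPM per kb Tj3-3, Tj3-2 and Tj3-1 ranked 6, 8 and 9. Tj2-1 led with 22.7 CPM per kb, and the Tj9 elements, the other family with 3 full-length copies, stood between 6.44 and 11.2 CPM per kb. The Tj5 elements stood at 0.567 and 0.760 CPM per kb. Set against genes, Tj3 loci held few reads, in CPM that was not scaled to length. The median logCPM of the 4886 loci not named as elements of these families was 6.03. Of them, 75.1% held more reads than the highest Tj3 locus. They include annotated genes that overlap elements, such as SJAG_16458.

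**Figure D3:**
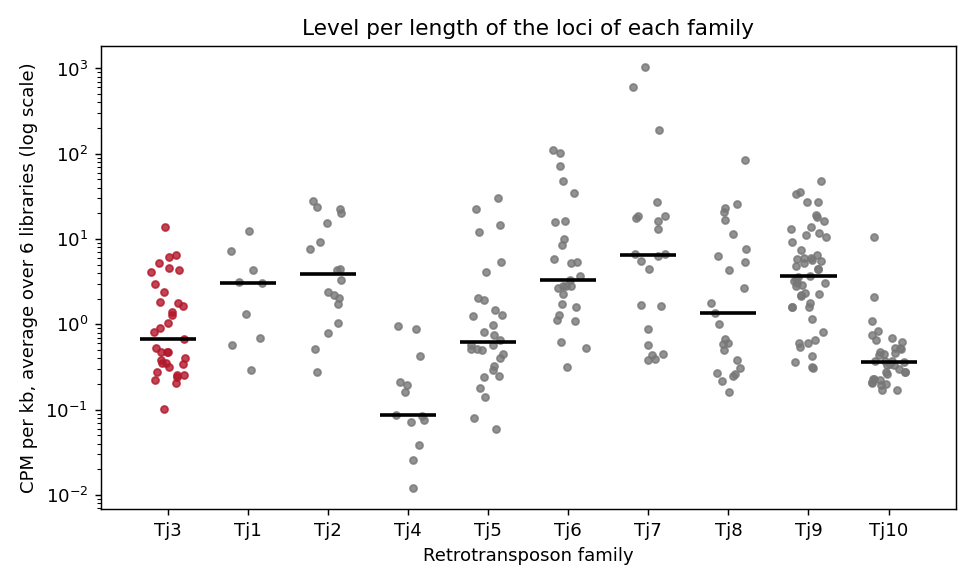
CPM per kb (average over 6 libraries, log scale) of the loci of each family, with 1 point per locus, Tj3 in red on the left, the other families in grey, and the median of each family as a black bar. The Tj3 median of 0.672 CPM per kb lies near that of Tj5 at 0.615, and no Tj3 locus exceeds 14.0 CPM per kb.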

How the data were processed

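The data are 6 RNA-seq libraries (TruSeq stranded mRNA, paired-end reads), 3 of dcr1Δ* and 3 of wild-type cells, assigned to strains by their titles. The authors trimmed reads with Trim Galore!, aligned them to SJ5 (GCA_000149845.2) with STAR, counted them with featureCounts, with multi-mapping reads split into fractions, and ran edgeR. The submitters' processing notes give versions 0.4.3.1, 2.7.2b, 2.0.1 and 3.34.0 of these tools. The paper's methods name other versions of featureCounts and edgeR. The unit used is the log2 CPM that the authors deposited as an average over all libraries. Its antilog over all loci summed to 1.00218e+06, so the base is 2. The 4 other value columns hold the authors' own comparison of the strains (log fold change, F, p-value and FDR) and were not used, so no comparison between strains and no test was made.

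Positions came from the study's table of elements. Of its 396 starts 5 are 0, so they were taken as 0-based and are given from 1. All 266 TE loci matched. Gene positions came from RefSeq (SJ5), which names no contig. The 3 longest runs of rising positions were assigned to supercont5.1 to supercont5.3 in the order with the least overlap with TE loci, 2439 bases against 40729 or more in 5 other orders. Genes on smaller contigs were not placed. CPM per kb is CPM over the length of the locus.

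Loci named are all full-length elements, solo LTRs and loci at the lowest value, the 8 partial elements with the most reads, the 5 with the most reads per length, and those that overlap an element or gene. Others were picked after their values were seen. The members and lists were chosen with earlier results of these data known. Alternatives subtracted the lowest value, left out solo LTRs, overlapping loci or the highest locus of each family, set a stricter minimum, or used CPM per kb. A rank correlation of length with reads is not reported here. Python 3.11.15, numpy 2.4.6, pandas 2.3.3 and matplotlib 3.10.9 were used.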

Additional observations from a re-analysis of the deposited data

How the results depend on the processing

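With pooled values alone, no library could be left out and depth limits cannot be set per sample. No paired analysis was possible because the only values used are averages over all 6 libraries. Of 27 alternatives, 8 left a value as it was to 3 digits or, for counts of loci, within 1.5 times. The rank of Tj3 by reads stayed at 6 under 4 of 5 alternatives and was 7 when the CPM per kb of the loci was summed in place of CPM. The number of loci above the lowest value, 33 as reported, was 25 of the 27 loci left without overlapping ones. With a minimum of 3 times that value it was 22, which lies at the limit of 1.5 times and was counted as unchanged.

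The summed CPM, 123 as reported, was 121 with the lowest value subtracted, 106 without the 8 loci that overlap another element and 94.7 without the highest locus of each family. The share of TE reads, 1.88% as reported, was 1.85% with the lowest value subtracted, 1.90% without solo LTRs, 1.94% without overlapping loci and 3.22% without the highest locus of each family, which in Tj7 alone takes away 71.9% of that family's reads. The median logCPM was −0.70 without solo LTRs, −1.03 without overlapping loci and −1.01 without the highest locus. The share on full-length elements was 25.6%, 25.4%, 29.3% and 32.9% under the same 4 alternatives, and 8.44% with CPM per kb, which removes the weight of their length. The share on the highest locus was 23.4% with the lowest value subtracted, 26.6% without overlapping loci and 20.9% with CPM per kb.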

Other observations

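The elements that border Tj3 loci differed from them in level in both directions. Of the 30 bordering contacts, 21 were with elements that have a value in the table. The neighbour held more reads in 13 of these pairs and the Tj3 locus in 8. The pairs are not separate, as Tj5-2 and Tj8_partial_retrotransposon-4.4 each enter more than once. So do Tj3_partial_retrotransposon-4.3, Tj3_partial_retrotransposon-4.4, Tj3_partial_retrotransposon-4.5 and Tj3_partial_retrotransposon-4.6, mostly with the neighbour higher. The widest gap with the neighbour higher was at Tj3_partial_retrotransposon-4.6, of 267 bases, which held 0.219 CPM beside Tj8_partial_retrotransposon-4.1 with 76.7 CPM. In the other direction, Tj3-2 held 9.10 CPM beside Tj5_partial_retrotransposon-7.1 with 0.0976 CPM. In the group on supercont5.1, Tj3_partial_retrotransposon-1.3 held 2.69 CPM beside Tj8_partial_retrotransposon-1.1 with 62.6 CPM. These pairs were singled out after their values were seen, they are not scaled to length, and their levels pool both strains. The 9 other contacts were with elements of Tj13, Tj15, Tj16 and Tj18, which were not among the loci with values.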
